A study of Mus musculus with 25 samples.

Results

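The BCL2 family decides whether a cell releases cytochrome c from its mitochondria and dies by apoptosis. Its proteins fall into opposing classes. Prosurvival proteins (BCL2, BCL-XL, MCL1 and A1) hold the pore-forming effectors BAX and BAK in check, and BH3-only proteins such as BIM, BMF and PUMA bind and neutralise the prosurvival proteins when a cell is stressed or loses growth factor support. In macrophages, survival depends on macrophage colony-stimulating factor (M-CSF), and A1, encoded in the mouse by the Bcl2a1 gene copies, is a known NF-κB target of inflammatory stimulation. The 10 genes described here were taken by symbol from the 24411 genes of the count tables: the prosurvival genes Bcl2, Bcl2l1 (BCL-XL), Mcl1, Bcl2a1b and Bcl2a1d, the effectors Bax and Bak1, and the BH3-only genes Bcl2l11 (BIM), Bmf and Bbc3 (PUMA). All 10 were among the 10612 genes that passed the filter on low counts.

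The study sequenced rRNA-depleted RNA of mouse macrophages in 25 libraries and asked how classical (M1) and alternative (M2) activation change transcripts. Bone marrow-derived macrophages (BMDMs) came from C57BL/6 mice and were differentiated with 25 ng/ml M-CSF for 4 days. The BMDM groups, of 3 libraries each, were a control kept in culture for 4 h without added stimulus, cells given IFN-γ (100 U/ml) with LPS (100 ng/ml) and collected after 1, 4, 12 or 24 h (IFN-LPS), and cells given IL-4 or IL-13 (each 10 ng/ml) for 12 h. RAW264.7, a mouse macrophage line transformed by Abelson leukaemia virus, was sequenced untreated and after 4 h with 100 ng/ml LPS and no IFN-γ, with 2 libraries per group. The 4 h culture was the only BMDM control, so the 1, 12 and 24 h groups were compared with cells of another time in culture. The length of the IFN-γ priming is not given in the sources used here. The study's methods describe the BMDM replicates as biological, from separate RNA samples. Whether these came from separate mice or cultures is not stated in the sources used here, so p-values measure the spread between these libraries, which for RAW264.7 cells may be technical.

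Values are sense-strand read counts scaled to a common library size (CPM) with TMM factors, after the ribosomal locus Rn45s was removed. Gene counts per library were 2378639 to 3357300, of which Rn45s took 20.1% to 39.8%. A change was called at an adjusted p of at most 0.01 in the quasi-likelihood test of edgeR, adjusted by the Benjamini-Hochberg method, and every adjusted p below without another name comes from it. In bulk RNA, fewer cells expressing a gene and less RNA per cell cannot be told apart. Of 9 macrophage markers all 9 were above 1 CPM in each BMDM group, whereas Mertk was at 0 in RAW264.7 cells. The share of Rn45s reads on the antisense strand was 0.0386% to 0.122% in the control and the 1, 4 and 12 h IFN-LPS libraries and 0.00603% to 0.0214% in the 24 h, IL-4 and IL-13 libraries, so this library difference and the treatment cannot be told apart when the latter are compared with the former. Markers of T and B cells, of mast cells and of erythroid cells each summed to at most 4.61 CPM in any library. Stromal cell markers summed to 55.7 to 145 CPM over the BMDM libraries, with 77.3 to 112 CPM in the control and 94.1 to 145 CPM at 4 h of IFN-LPS. Their part in the levels below was not tested.

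The promoters of the Bcl2a1 copies are shown first, because these copies gave the largest increases among the 10 genes and because their similarity limits how far single copies can be told apart. The sequences are the 250 bases before the RefSeq transcription start (GRCm38.p6), at chr9:88956670-88956919 on the plus strand for Bcl2a1a, a copy outside the 10 genes, chr9:89199023-89199272 on the plus strand for Bcl2a1b, and chr9:88731851-88732100 on the minus strand for Bcl2a1d. Capitals mark a loose AP-1 pattern (TGANTCA, where N is any base) and a PU.1 motif (GAGGAAGT), searched on both strands. The AP-1 match reads TGAATCA in each copy shown.
Bcl2a1a: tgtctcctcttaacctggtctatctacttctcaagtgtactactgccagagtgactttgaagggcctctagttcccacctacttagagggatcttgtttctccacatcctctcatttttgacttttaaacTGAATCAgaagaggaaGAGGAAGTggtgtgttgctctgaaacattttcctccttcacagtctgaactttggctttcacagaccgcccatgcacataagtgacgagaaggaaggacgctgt
Bcl2a1b: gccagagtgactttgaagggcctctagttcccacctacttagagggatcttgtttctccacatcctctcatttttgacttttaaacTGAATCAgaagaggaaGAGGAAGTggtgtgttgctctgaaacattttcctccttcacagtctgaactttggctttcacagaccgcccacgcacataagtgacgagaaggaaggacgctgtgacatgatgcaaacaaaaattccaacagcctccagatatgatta
Bcl2a1d: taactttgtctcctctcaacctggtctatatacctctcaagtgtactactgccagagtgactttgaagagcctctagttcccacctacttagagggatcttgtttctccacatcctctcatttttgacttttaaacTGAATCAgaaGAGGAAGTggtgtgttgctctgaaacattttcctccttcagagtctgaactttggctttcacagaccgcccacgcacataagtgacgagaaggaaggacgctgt
The Bcl2a1a and Bcl2a1b stretches were 99.5% identical over their shared bases, with 1 mismatch, and the annotated start of Bcl2a1b lay 44 bases further on. Those of Bcl2a1a and Bcl2a1d were 95.2% identical, with 6 mismatches and 6 gap bases. Relative to the annotated start, the AP-1 letters began at -120 in Bcl2a1a, -164 in Bcl2a1b and -114 in Bcl2a1d. They occur in 6.75% of the 32851 RefSeq promoter windows, each searched over the 250 bases before the start. The PU.1 letters began at -104, -148 and -104, and occur in 2.44%. Outside the Bcl2a1 copies, the PU.1 letters were found in the promoter window of Bak1 (at -22). An NF-κB motif was found in windows of Bcl2l11 (at -114), Bcl2l1 (at -218), Mcl1 (at -28) and Bbc3, and in 4.11% of all promoters. The FOXO letters GTAAACA were found in a single window of Bcl2l11 (at -227) and of Bbc3 (at -167), and in 3.17% of all promoters. An IRF motif, held by 2.98% of all promoters, was in no window of the 10 genes. A match of letters is a description and not a measured site.

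In IFN-LPS BMDMs, the BH3-only gene Bcl2l11, the prosurvival genes Mcl1, Bcl2a1b and Bcl2a1d and the effector Bak1 rose at 1 h. The BH3-only gene Bmf fell at that time, and Bak1 stayed higher than in the control at all later times. Bcl2a1b and Bcl2a1d were highest at 4 h, where the prosurvival gene Bcl2 was lower than in the control. At 12 and 24 h, Bcl2l11 was lower than in the control and the effectors Bax and Bak1 were higher. At 1 h, 5 of the 10 genes rose and 1 fell, against 14.7% and 10.3% of all 10612 genes. At 4 h, 5 rose and 2 fell (all genes: 25.3% and 23.2%). At 12 h, 5 rose and 3 fell (23.2% and 21.6%), and at 24 h, 4 rose and 4 fell (22.3% and 20.5%). The medians of the 10 log2 fold changes were 0.70, 0.23, 0.08 and -0.34, beside -0.02, -0.09, -0.02 and -0.01 over all genes, and the 4 h median is the same with Bmf, lowest of the 10, at its bound. As a background for the statements on overlap below, the libraries of the groups did not overlap for 46.1%, 61.9%, 58.8% and 57.7% of all genes at these times. When TMM factors were left out, the median of all genes moved by -0.58 at 4 h and by -0.35 at 12 h, and the calls became 3 higher and 4 lower at both times. The small changes of Mcl1 and Bax at those times are therefore relative to the bulk of genes, and their values without TMM are given beside them. Mcl1 at both times and Bax at 4 h also lost their calls under some settings that kept TMM factors.

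**Figure D1:**
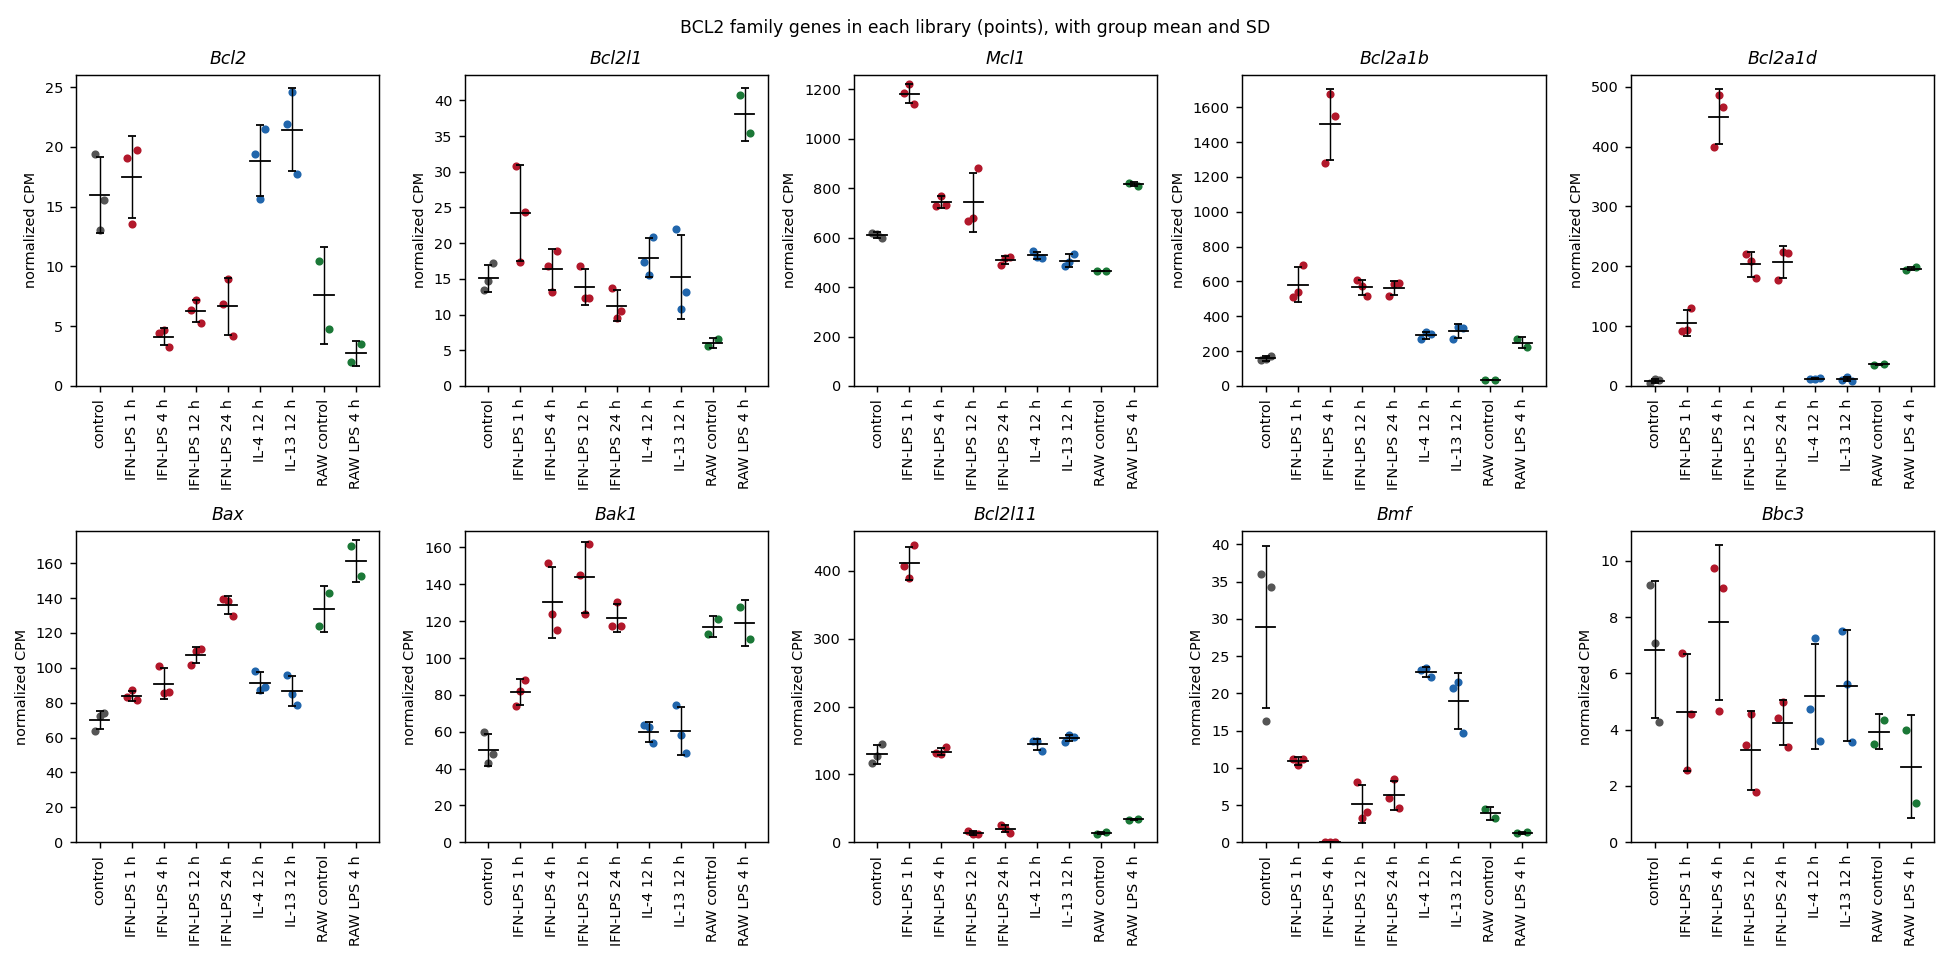
Normalized CPM of the 10 genes in each of the 25 libraries, by group (grey, BMDM control; red, IFN-LPS; blue, IL-4 and IL-13; green, RAW264.7). Points are libraries, lines are group means and bars are SD; Bcl2l11 lies between 389 and 437 CPM at 1 h and between 11.8 and 16.8 CPM at 12 h, and Bmf is at 0 in all 3 libraries at 4 h.

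Among the prosurvival genes, Bcl2a1b (chr9:89199209-89207827, plus strand; GENCODE M21, GRCm38) encodes the A1 protein that binds BH3-only proteins. Its level was 147, 155 and 173 CPM in the 3 control libraries. It was 513, 538 and 695 CPM after 1 h and 1280, 1678 and 1548 CPM after 4 h. At 12 h it was 606, 572 and 518 CPM, and at 24 h it was 514, 584 and 590 CPM. Every IFN-LPS library lay above every control library, and the 4 h libraries lay above all others. The log2 fold change was 1.88 ± 0.11 (SE, n = 3 against 3) at 1 h (adjusted p = 6.55e-22) and 3.25 ± 0.11 at 4 h (adjusted p = 2.29e-33). It then fell between 4 and 12 h by 1.41 on the log2 scale (adjusted p = 5.36e-18) and stood at 1.84 at 12 h and 1.83 at 24 h against the control.

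Bcl2a1d (chr9:88723285-88731914, minus strand) encodes a near-identical A1 protein. Its level rose from 5.38, 10.9 and 9.65 CPM in the control to 92.0, 92.8 and 131 CPM at 1 h. At 4 h it was 398, 486 and 466 CPM. At 12 and 24 h its libraries lay between 176 and 224 CPM. No IFN-LPS library overlapped the control. The log2 fold change was 3.61 ± 0.19 at 1 h (adjusted p = 5.71e-26) and 5.70 ± 0.17 at 4 h (adjusted p = 4.97e-41), the largest increase of any of the 10 genes in any comparison with the control. It was 4.55 at 12 h and 4.58 at 24 h.

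Bcl2a1a, the copy outside the 10 genes, followed another course. It averaged 1.25 ± 1.24 CPM in control BMDMs (SD, n = 3). Under IFN-LPS it averaged 26.0 ± 5.71 CPM after 1 h, 121 ± 29.4 after 4 h, 151 ± 11.4 after 12 h and 204 ± 17.9 CPM after 24 h. It thus did not fall after 4 h as the other copies did, and it rose between 12 and 24 h (log2 fold change 0.44 ± 0.11, adjusted p = 0.00253). As a share of the counts of all Bcl2a1 copies within a library, Bcl2a1b made up 94.2% ± 1.67 in control cells. After IFN-LPS this share was 81.4% ± 0.58 at the first time, 72.4% ± 0.11 after 4 h, 61.4% ± 0.52 after 12 h and 57.6% ± 1.04 after 24 h. Bcl2a1a went from 0.709% ± 0.641 to 20.9% ± 0.303 over the same course. These shares need no scaling between libraries. Of the 101-base windows of each transcript, 30.5% for Bcl2a1b, 54.0% for Bcl2a1d and 43.1% for Bcl2a1a occur in another copy's transcript too. Reads with more than 1 location were not assigned to any gene, so the level of each single copy is uncertain. Neutrophil and precursor markers, of cells that also express Bcl2a1 genes, summed to 21.8 to 32.7 CPM in the control, 32.9 to 46.1 at 1 h and 39.7 to 50.1 at 4 h over the 8 of 9 markers in the files, and back to 25.4 to 30.7 at 12 and 24 h, with Mpo and Retnlg at 0 in all 5 groups. Dendritic cell markers summed to 0.536 to 1.63 CPM in the control, 48.7 to 54.2 at 1 h and 14.8 to 18.6 at 4 h, with 1 of the 6 markers at 1 CPM or more in the latter groups and Flt3 and Siglech at 0. The part of either list in the Bcl2a1 levels, or in the 1 h levels of other genes, was not tested.

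**Figure D2:**
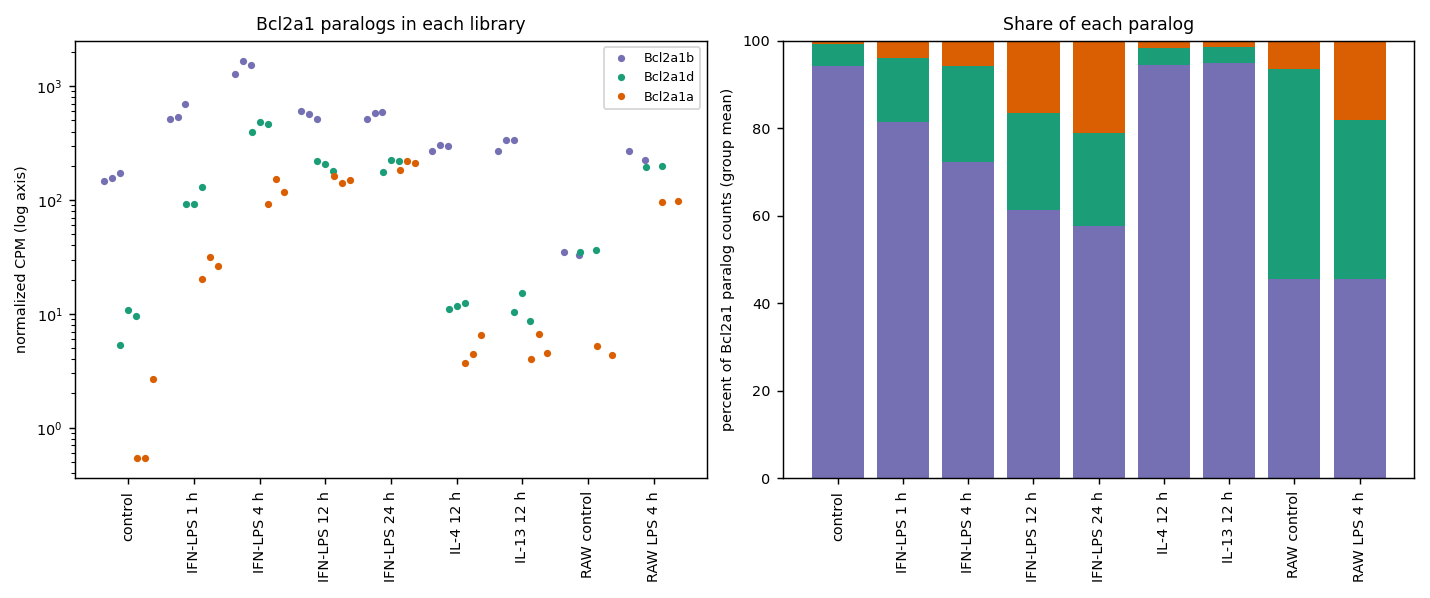
Bcl2a1 copies by group (purple, Bcl2a1b; green, Bcl2a1d; orange, Bcl2a1a). Left, normalized CPM in each library on a log axis; right, mean share of each copy in the counts of all Bcl2a1 copies, where Bcl2a1b goes from 94.2% in the BMDM control to 57.6% at 24 h of IFN-LPS and is 45.6% in RAW264.7 control cells (Bcl2a1c, at 0 or a few counts, is not drawn).

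Mcl1 (chr3:95658788-95663176, plus strand) encodes a short-lived prosurvival protein that BIM and PUMA bind. Its level was 619, 615 and 599 CPM in the control and 1186, 1221 and 1143 CPM at 1 h. It was 727, 770 and 734 CPM at 4 h, 669, 681 and 882 CPM at 12 h and 491, 516 and 522 CPM at 24 h. The 1 h libraries stood clear of all other BMDM libraries. The rise at 1 h was 0.95 ± 0.08 on the log2 scale (adjusted p = 5.67e-16). Between 1 and 4 h, Mcl1 fell by 0.67 (adjusted p = 2.54e-10), and between 12 and 24 h it fell by 0.55 (adjusted p = 3.95e-07). Its smaller differences from the control were less firm. With the same experiment's samples alone, those at 4 and 12 h were not called (adjusted p = 0.0245 and 0.0198). The log2 fold change of 0.28 at 4 h (adjusted p = 0.00348) became -0.30 without TMM factors, where the median of all genes was -0.66, and lost its call without control replicate 2 (adjusted p = 0.0101) or 4 h replicate 2 (adjusted p = 0.0222). That of 0.28 at 12 h (adjusted p = 0.00325) became -0.07 without TMM factors, where the median was -0.38, and was 0.16 without 12 h replicate 3 (adjusted p = 0.119) and 0.28 without control replicate 3 (adjusted p = 0.0114). The 24 h value of -0.26 (adjusted p = 0.0072) lost its call when any 1 of the 6 libraries was left out, with adjusted p from 0.0142 to 0.0295.

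Bcl2 (chr1:106538178-106714274, minus strand), the founding prosurvival gene, fell later. Control libraries held 19.4, 13.1 and 15.5 CPM of it and 1 h libraries 19.1, 13.5 and 19.8 CPM, with overlapping libraries. At 4 h it measured 4.44, 4.67 and 3.29 CPM, below every control library. The 12 and 24 h libraries lay between 4.22 and 8.97 CPM. The log2 fold change was 0.14 ± 0.24 after 1 h, which was not called. After 4 h it was -1.94 ± 0.37 (adjusted p = 6.45e-06), after 12 h -1.35 ± 0.31 (adjusted p = 0.000132) and after 24 h -1.28 ± 0.28 (adjusted p = 9.79e-05). Bcl2l1 (chr2:152780668-152831728, minus strand), which encodes BCL-XL, was called at none of these times by edgeR against the control. Its unadjusted p was under 0.05 at 1 h, where its libraries held 30.8, 17.4 and 24.3 CPM against 13.5, 14.7 and 17.2 CPM in the control. That difference (log2 0.69 ± 0.23, adjusted p = 0.012) was called without 1 h replicate 2 (log2 0.86, adjusted p = 0.0031). It was also called under another count filter, at least 10 counts in total and 1 CPM in 2 samples (adjusted p = 0.00955). DESeq2 did not call it (adjusted p = 0.0418).

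Both effectors moved upward, Bak1 from 1 h on and Bax more slowly. Bak1 (chr17:27019810-27029009, minus strand), one of the pore formers, measured 59.7, 43.0 and 47.7 CPM in the control and 74.0, 81.9 and 88.2 CPM at 1 h. At 4 h it measured 152, 124 and 115 CPM. The 12 h libraries held 145, 124 and 162 CPM and the 24 h libraries 118, 131 and 117 CPM. No stimulated library overlapped the control from 1 h on. Its log2 fold changes were 0.70 ± 0.14, 1.37 ± 0.14, 1.52 ± 0.13 and 1.28 ± 0.13 in order of time, all called (highest adjusted p = 4.44e-05). Bax (chr7:45461697-45466898, minus strand), the other pore former, held 64.0, 72.4 and 74.0 CPM in control libraries. After 12 h it held 102, 109 and 111 CPM and after 24 h 140, 138 and 130 CPM, all above the control. Its log2 fold change was 0.61 ± 0.12 at 12 h (adjusted p = 6.88e-06) and 0.95 ± 0.11 at 24 h (adjusted p = 1.51e-11). Without TMM factors the 12 h value was 0.26 (adjusted p = 0.0494). At 4 h, Bax was called at 0.37 (adjusted p = 0.00876) but not by DESeq2 (adjusted p = 0.0129). It was not called without control replicate 1, control replicate 2, 4 h replicate 1 or 4 h replicate 2 (adjusted p from 0.0113 to 0.0536). Nor was it called under the other count filters, with Rn45s kept or with the same experiment's samples alone (adjusted p from 0.0111 to 0.0251). Its value without TMM factors was -0.21.

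Of the BH3-only genes, Bcl2l11 went from higher to lower than the control, Bmf was lower at all 4 times and Bbc3 was not called. Bcl2l11 (chr2:128126038-128162547, plus strand) encodes BIM, which binds every prosurvival member of the family. Its level was 117, 127 and 145 CPM in the control and 407, 389 and 437 CPM at 1 h. At 4 h it was 131, 130 and 140 CPM, within the control range. At 12 h it was 16.8, 12.4 and 11.8 CPM, and at 24 h it was 25.0, 20.4 and 14.3 CPM, all below every control library. The mean at 1 h was 3.17-fold the control mean (log2 1.66 ± 0.10, adjusted p = 6.22e-24). The mean at 12 h was 9.51-fold lower than the control mean (log2 -3.24 ± 0.16, adjusted p = 1.85e-29), and at 24 h it was 6.52-fold lower (log2 -2.72 ± 0.14, adjusted p = 3.64e-28). At 4 h the log2 fold change was 0.04, with a 95% interval of -0.19 to 0.27. Without TMM factors it was -0.54 (adjusted p = 3.24e-05), where the median of all genes was -0.66. Counts of Bcl2l11 per count of Mcl1 in the same library, which need no scaling, were 0.213 ± 0.0271 in control BMDMs and 0.348 ± 0.0323 after 1 h of IFN-LPS. They were 0.180 ± 0.0109 after 4 h, 0.0189 ± 0.00588 after 12 h and 0.0393 ± 0.0117 after 24 h. This ratio is not per length and serves only to compare groups.

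Bmf (chr2:118528757-118549687, minus strand), a BH3-only gene whose protein binds the dynein light chain, fell earlier. It held 36.1, 16.3 and 34.3 CPM in the control and 11.2, 10.3 and 11.2 CPM at 1 h. It had 0 counts in all 3 libraries at 4 h. At 12 h it held 8.10, 3.26 and 4.13 CPM and at 24 h 5.88, 8.47 and 4.64 CPM. All stimulated libraries lay below all control libraries. The log2 fold change at 1 h was -1.40 ± 0.25 (adjusted p = 3.65e-06), and those at 12 and 24 h were -2.45 and -2.20. At 4 h, 3 counts over the group, the limit that a count of 0 allows for counting error, equal 0.827 CPM, which makes Bmf at least 35.0-fold lower than in the control (adjusted p = 2.9e-16). It returned above 0 between 4 and 12 h (adjusted p = 2.63e-05). Bbc3 (chr7:16308393-16318205, plus strand), the PUMA gene and a p53 target, was low, with group means between 2.69 and 7.82 CPM over all 9 conditions. It was called in none of the comparisons by edgeR, and its log2 fold change of -1.07 ± 0.45 at 12 h had an adjusted p of 0.0388, or 0.00519 without TMM factors (log2 -1.41). With 3 to 17 counts of Bbc3 per library, small differences were not detectable.

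From step to step, 3 of the 10 genes rose and 4 fell between 1 and 4 h (all genes: 19.0% and 17.2%). Bcl2a1d, Bcl2a1b and Bak1 rose, and Bcl2, Bmf, Bcl2l11 and Mcl1 fell. Without TMM factors these counts were 2 and 5, since Bak1 lost its call and Bcl2l1 gained one. Between 4 and 12 h, Bmf rose from 0 and 3 genes fell (15.2% and 18.2%). Bcl2l11 fell by 3.28 on the log2 scale, Bcl2a1b fell by 1.41 and Bcl2a1d fell by 1.15. Without TMM factors, Bax and Bak1 were called higher as well, which gave 3 higher and 3 lower. Between 12 and 24 h, Mcl1 alone was called, and it fell (4.22% of all genes rose and 9.36% fell). None was called higher by edgeR or by DESeq2, and 2 of the 10 were higher at an unadjusted p under 0.05. Bax, at log2 0.34 ± 0.11 (adjusted p = 0.0148), was called higher without TMM factors (1 higher and 1 lower) and with Rn45s kept (adjusted p = 0.00743).

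The study's own cutoffs add to the same adjusted p a minimum log2 fold change, which is 1.5 for IFN-LPS, 0.7 for the M2 stimuli and 2 for LPS in RAW264.7 cells (1.5 was used here between cell types). Under them, 3 of the 10 genes were called at 1 h (7.04% of all genes), 4 at 4 h (21.9%), 5 at 12 h (17.0%) and 4 at 24 h (14.7%). Between times, 4 were called for 4 h against 1 h (13.4%), 2 for 12 h against 4 h (9.36%) and 0 for 24 h against 12 h (1.25%), where edgeR without a fold cutoff and DESeq2 called 1 and 4 had an unadjusted p under 0.05. With IL-4, with IL-13 and between them, 1 (3.37%), 1 (4.75%) and 0 (0.0471%) were called. For IFN-LPS against IL-4 and against IL-13, 4 were called in each (16.0% in both). In RAW264.7 cells 3 were called with LPS (3.0%), 4 between the control cells (33.2%) and 3 for the difference of responses (12.4%). Bcl2a1b and Bcl2a1d both passed these cutoffs at every IFN-LPS time against the control and in RAW264.7 cells with LPS. Bcl2a1b also passed them with IL-4 and with IL-13.

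**Figure D3:**
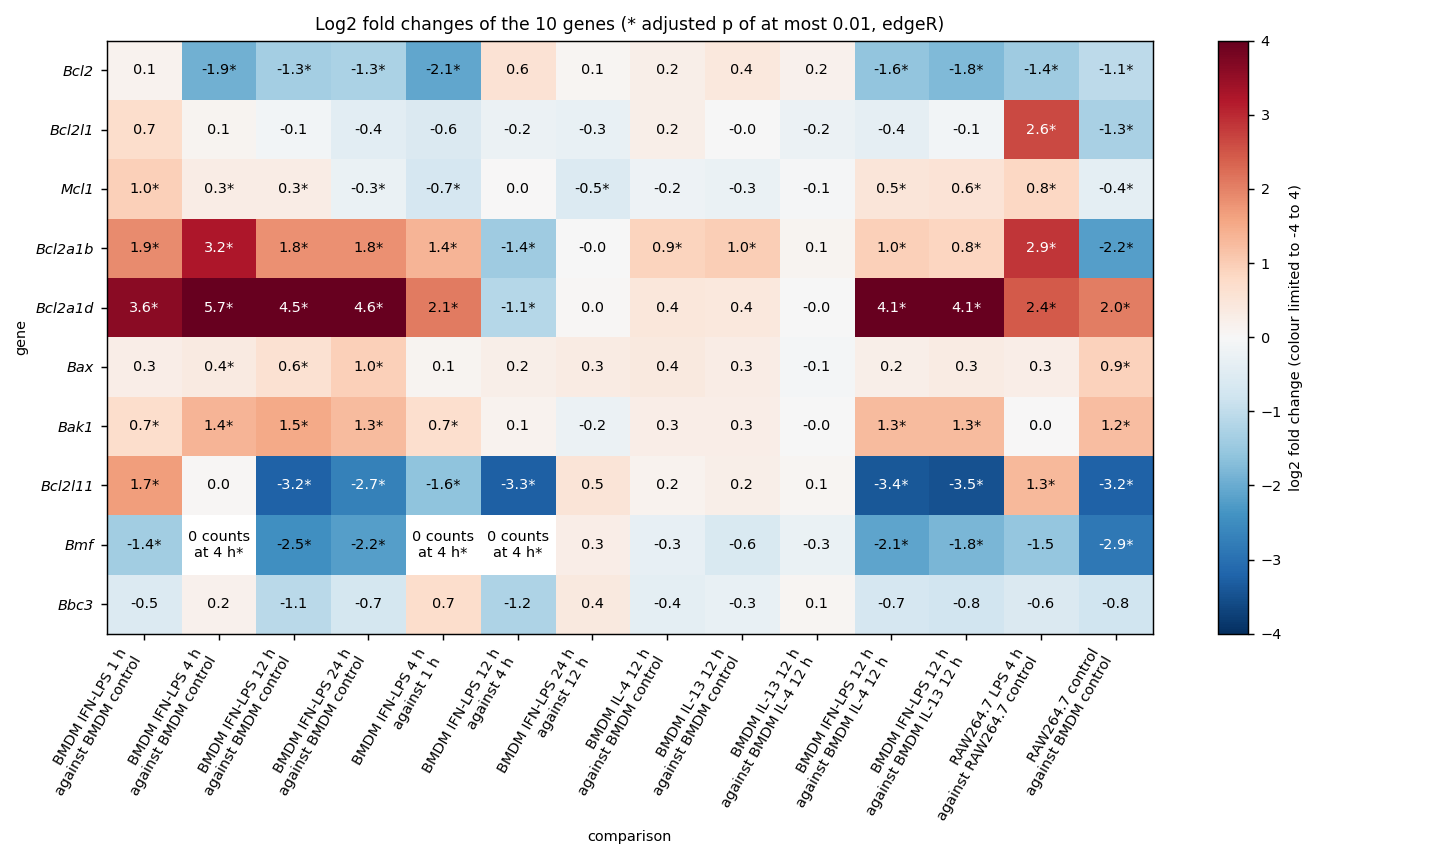
Log2 fold changes of the 10 genes (vertical axis) in 14 comparisons (horizontal axis), coloured from blue (lower) to red (higher) within -4 to 4, with asterisks at an adjusted p of at most 0.01. Bmf has no fold change where a group held 0 counts; Bcl2a1d reaches 5.7 at 4 h of IFN-LPS and Bcl2l11 falls to -3.2 at 12 h, and the values of Mcl1 and Bax at 4 h and of Mcl1 at 12 h change sign without TMM factors.

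Levels per kilobase of exon compare different genes only roughly. Exon lengths came from GENCODE, while the annotation release behind the counts is not given in the sources used here. Reads mapped to several places were left out. Of the 101-base windows, 30.5% for Bcl2a1b and 54.0% for Bcl2a1d occur in another copy too. The ranks of these copies are therefore uncertain. On this scale, Bcl2a1b (194 ± 16.1 CPM per kb) and Mcl1 (179 ± 3.09) were the highest of the 10 genes in control BMDMs. Bax (80.9 ± 6.16), Bak1 (21.0 ± 3.62) and Bcl2l11 (18.8 ± 2.06) followed. Bcl2 was the lowest at 1.75 ± 0.347 CPM per kb. At 4 h of IFN-LPS, Bcl2a1b stood at 1838 ± 248 and Bcl2a1d at 521 ± 53.0 CPM per kb, ahead of Mcl1 at 218 ± 6.84. In RAW264.7 control cells, Bax was the highest at 154 ± 15.2 CPM per kb (n = 2), ahead of Mcl1 at 136 ± 0.126.

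The M2 stimuli changed 1 gene of the 10. With IL-4, Bcl2a1b rose from 147, 155 and 173 CPM to 268, 307 and 297 CPM (log2 0.88 ± 0.11, adjusted p = 2.18e-08). With IL-13, it rose to 267, 339 and 335 CPM (log2 0.99 ± 0.11, adjusted p = 3.69e-10). Neither group overlapped the control, which both comparisons share. The calls were 1 higher and 0 lower in each, against 3.78% and 2.47% of all genes with IL-4 and 4.98% and 3.35% with IL-13. DESeq2 also called 0 lower, and at an unadjusted p under 0.05 edgeR gave 1 lower with IL-4 and 2 lower with IL-13. Bax had a log2 difference of 0.39 ± 0.12 with IL-4 (adjusted p = 0.0219) and 0.30 ± 0.12 with IL-13 (adjusted p = 0.0855), with every treated library above every control library. Such non-overlap was seen for 27.9% of all genes with IL-4 and 28.3% with IL-13. Mcl1 had -0.21 ± 0.09 (adjusted p = 0.11) and -0.27 ± 0.09 (adjusted p = 0.023), with every treated library lower. The other genes were not called, with log2 differences from -0.39 (Bbc3) to 0.44 (Bcl2a1d) with IL-4 and from -0.61 (Bmf) to 0.42 (Bcl2) with IL-13. Bcl2l11 held 149, 149 and 135 CPM with IL-4 and 148, 158 and 155 CPM with IL-13. Bmf held 23.1, 23.4 and 22.1 CPM with IL-4 and 20.8, 21.5 and 14.7 CPM with IL-13. Its IL-13 difference of -0.61 (adjusted p = 0.0531) was called without control replicate 2, the lowest control library, at -0.89 (adjusted p = 0.0024). Neutrophil and precursor markers summed to 21.7 to 31.7 CPM with IL-4 and 28.8 to 39.5 CPM with IL-13, and their part in the Bcl2a1b levels was not tested.

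IL-13 and IL-4 were compared with each other at the same dose and time. By edgeR and by DESeq2, 0 of the 10 genes differed, and 0 had an unadjusted p under 0.05, where 0.0754% of all genes were called higher and 0% lower. The 95% interval of the log2 difference (IL-13 minus IL-4) was -0.10 to 0.33 for Bcl2a1b, -0.12 to 0.30 for Bcl2l11, -0.23 to 0.11 for Mcl1 and -0.32 to 0.14 for Bax. It was wider for the low genes, at -0.26 to 0.63 for Bcl2 and -0.73 to 0.19 for Bmf, so larger differences remain within these data for those genes.

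Set against the M2 stimuli at the same 12 h, IFN-LPS gave 4 genes higher and 3 lower in both comparisons, with 21.1% and 19.9% of all genes called against IL-4 and 21.0% and 20.0% against IL-13. Both comparisons share the IFN-LPS libraries. Bcl2l11 had a log2 difference of -3.39 ± 0.16 from IL-4 (adjusted p = 6.68e-31) and of -3.48 ± 0.16 from IL-13 (adjusted p = 7.74e-32). Bmf (-2.11 and -1.84) and Bcl2 (-1.58 and -1.76) were lower too. Bcl2a1d (4.11 and 4.14), Bak1 (1.26 and 1.26), Bcl2a1b (0.96 and 0.85) and Mcl1 (0.49 and 0.55) were higher. Without TMM factors, Mcl1 kept its sign but not its call (0.14, adjusted p = 0.117, and 0.17, adjusted p = 0.0542). Bax, at 0.31 ± 0.11 against IL-13 (adjusted p = 0.0172), was called without IL-13 replicate 1 (adjusted p = 0.00738) and was -0.06 without TMM factors. Bcl2l1 (-0.36 and -0.12) and Bbc3 (-0.68 and -0.75) were not called.

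In RAW264.7 cells, 4 h of LPS raised 5 of the 10 genes and lowered 1, against 8.90% and 9.61% of all genes. Bcl2l1, which encodes BCL-XL, rose from 5.57 and 6.54 CPM to 40.7 and 35.4 CPM (log2 2.64 ± 0.26, adjusted p = 1.74e-13). Bcl2a1b rose from 35.1 and 33.1 CPM to 269 and 226 CPM (log2 2.86 ± 0.16, adjusted p = 9.96e-23). Bcl2a1d rose from 35.1 and 36.7 CPM to 194 and 198 CPM (log2 2.45 ± 0.16, adjusted p = 1.02e-21). The groups did not overlap for any of these genes, which was so for 62.3% of all genes. Bcl2l11 rose from 12.5 and 14.9 CPM to 33.1 and 34.4 CPM (log2 1.30 ± 0.20, adjusted p = 2.48e-07), and Mcl1 rose from 464 and 465 CPM to 823 and 811 CPM (log2 0.81 ± 0.10, adjusted p = 7.07e-10). Bcl2 fell from 10.4 and 4.72 CPM to 2.0 and 3.47 CPM (log2 -1.43 ± 0.43, adjusted p = 0.00756). That call was lost with DESeq2 (adjusted p = 0.0254), without control replicate 1 (log2 -0.75, adjusted p = 0.406), without LPS replicate 1 (log2 -1.12, adjusted p = 0.118) and without LPS replicate 2 (log2 -1.89, adjusted p = 0.0178), where the lone library of a group is assumed to vary like the other groups. Bak1 held 113 and 121 CPM before and 128 and 110 CPM after LPS (log2 0.02, 95% interval -0.25 to 0.29). Bax held 124 and 143 CPM before and 170 and 153 CPM after LPS (log2 0.27 ± 0.12, adjusted p = 0.0803), and was called with the RAW264.7 libraries alone (log2 0.31, adjusted p = 0.00467). Bmf held 4.52 and 3.27 CPM before and 1.20 and 1.39 CPM after (log2 -1.54 ± 0.61, adjusted p = 0.0536). Bbc3 had a log2 difference of -0.57 ± 0.53 (adjusted p = 0.472).

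Before stimulation, RAW264.7 cells and BMDMs differed in 9 of the 10 genes, 3 higher and 6 lower in the line, where 31.9% and 33.7% of all genes were called. Bcl2l11 averaged 13.7 ± 1.68 CPM in the line (n = 2) and 130 ± 14.2 in BMDMs (n = 3), a log2 difference of -3.24 ± 0.16 (adjusted p = 7.45e-29). Bmf averaged 3.90 ± 0.886 and 28.9 ± 10.9 CPM (log2 -2.87, adjusted p = 7.61e-13). Bax (log2 0.93, adjusted p = 1.83e-10) and Bak1 (log2 1.22, adjusted p = 5.92e-12) were higher in the line. Bcl2l1 (-1.31), Mcl1 (-0.40) and Bcl2 (-1.06) were lower, but Bcl2 lost its call without RAW264.7 control replicate 2 (-0.61, adjusted p = 0.0938), without BMDM control replicate 1 (-0.90, adjusted p = 0.0115) and without TMM factors (-0.81, adjusted p = 0.0113), and Mcl1 without TMM factors (-0.14, adjusted p = 0.135). The Bcl2a1 copies went in opposite directions: Bcl2a1b was lower (log2 -2.21, adjusted p = 2.87e-19) and Bcl2a1d higher (log2 2.05, adjusted p = 6.95e-12). Summed over the copies, the difference was -1.17 (adjusted p = 6.55e-11). Bcl2a1b made up 45.6% ± 1.37 of the copies' counts in the line and 94.2% ± 1.67 in BMDMs, and the line and the C57BL/6 mice differ in strain, which cannot be told apart from cell type. Stromal markers, 5 of 5 in the files, summed to 77.3 to 112 CPM in control BMDMs and were all at 0 in RAW264.7 cells. Neutrophil and precursor markers summed to 0.363 to 0.696 CPM in the line and 21.8 to 32.7 CPM in control BMDMs. Their part in these differences was not tested.

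The 4 h responses of the cell types were compared in a test of the difference itself, RAW264.7 LPS response minus BMDM IFN-LPS response. The agents differ, since the BMDMs also had IFN-γ, so cell type and IFN-γ cannot be told apart. Of the 10 genes, 4 had a higher and 2 a lower response in the line, against 9.75% and 15.3% of all genes. Bcl2l1 responded 2.53 ± 0.38 more on the log2 scale (adjusted p = 8.31e-08), from 2.64 in the line and 0.11 in BMDMs. Bcl2l11 responded 1.26 ± 0.23 more (adjusted p = 7.88e-06), with 1.30 and 0.04, and Mcl1 responded 0.53 ± 0.13 more (adjusted p = 0.000931), with 0.81 and 0.28. Bmf was also called (adjusted p = 0.000164), which rests on the 0 counts in BMDMs at 4 h against 1.20 and 1.39 CPM in the stimulated line. The response of Bcl2a1d was lower by 3.25 on the log2 scale (-3.25 ± 0.26, adjusted p = 4.31e-17) and that of Bak1 by 1.35 (-1.35 ± 0.20, adjusted p = 3.03e-08). For Bcl2a1b the difference was -0.39, with a 95% interval of -0.78 to 0.00323, and for the summed copies it was -0.77 (adjusted p = 0.000362). Bcl2 (0.50), Bax (-0.10) and Bbc3 (-0.75) were not called.

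**Figure D4:**
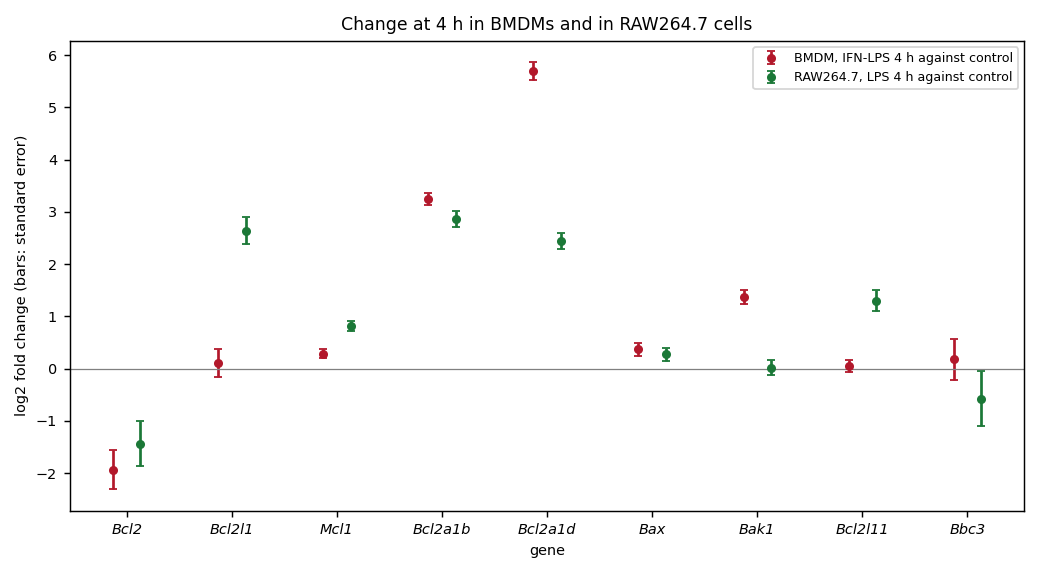
Log2 fold change at 4 h (vertical axis, points with standard errors) of 9 of the 10 genes (horizontal axis) in BMDMs with IFN-LPS (red, n = 3 against 3) and in RAW264.7 cells with LPS (green, n = 2 against 2). Bcl2l1 is at 2.64 in the line and 0.11 in BMDMs and Bcl2a1d at 2.45 and 5.70; Bmf is left out because it had 0 counts in BMDMs at 4 h, and without TMM factors Mcl1 and Bax in BMDMs are at -0.30 and -0.21.

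Other genes of the cell death pathway are given from lists chosen by function. Among other BCL2 family genes (9 of 16 tested), 2 rose and 1 fell at 1 h and again at 4 h of IFN-LPS, against 14.7% and 10.3% of all genes at 1 h and 25.3% and 23.2% at 4 h. Pmaip1, the gene of the BH3-only protein NOXA, rose from 12.0 ± 0.83 to 26.4 ± 2.25 CPM after 1 h (log2 1.13, adjusted p = 1.87e-05). Bnip3l, which encodes a mitophagy receptor, fell from 301 ± 25.8 to 121 ± 19.4 CPM at 4 h (log2 -1.31, adjusted p = 1.1e-16), and with IL-4 it rose to 412 ± 25.7 CPM (log2 0.45, adjusted p = 0.000618). Of 14 genes of the mitochondrial death pathway and caspases, 6 rose and 2 fell at 4 h, where 25.3% and 23.2% of all genes did. Cycs, the cytochrome c gene, rose from 20.3 ± 4.98 to 109 ± 13.7 CPM (log2 2.42, adjusted p = 1.61e-21), and Casp9, the caspase of the apoptosome, fell from 72.6 ± 5.13 to 15.9 ± 1.71 CPM (log2 -2.18, adjusted p = 5.65e-18). In RAW264.7 cells with LPS, 4 of the 14 fell, Casp9 among them (48.8 to 24.5 CPM), where 9.61% of all genes fell and 8.90% rose. By edgeR, 0 of the 14 rose, also at an unadjusted p under 0.05.

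At 4 h in BMDMs, where 25.3% of all genes rose and 23.2% fell, 5 of 9 tested death receptor genes rose. Cflar, whose product c-FLIP blocks caspase-8, rose from 87.4 ± 6.09 to 2035 ± 156 CPM (log2 4.54, adjusted p = 8.41e-52), and in RAW264.7 cells it rose from 41.1 ± 1.01 to 122 ± 4.31 CPM (log2 1.57, adjusted p = 6.4e-17). Mlkl, the executor of necroptosis, rose from 1.09 ± 1.44 to 28.1 ± 9.13 CPM (log2 4.62, adjusted p = 2.77e-14). Of 7 inhibitor of apoptosis genes, 3 rose and 2 fell at 4 h, led by Birc3 (cIAP2), from 16.7 ± 2.59 to 174 ± 3.08 CPM (log2 3.38, adjusted p = 4.92e-32). Of 12 regulators of the family, 7 rose and 2 fell at 4 h. Foxo3, a transcription factor known to drive Bcl2l11 and Bmf, fell from 27.0 ± 3.24 to 3.58 ± 0.302 CPM (log2 -2.89, adjusted p = 7.31e-13), and Cdkn1a, the p21 gene, rose from 25.7 ± 0.414 to 1206 ± 44.3 CPM (log2 5.55, adjusted p = 5.54e-52). The medians of the 5 lists at 4 h were -0.09, 0.19, 0.85, 0.37 and 0.43 in the order given, beside -0.09 over all genes.

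As a description over the 9 condition means of log2 CPM, which share libraries and scaling, Bcl2 and Bmf had the most similar patterns of any pair of the 10 genes (Pearson r = 0.90, n = 9), and Bcl2 and Bak1 the most opposed (r = -0.86). Of 9468 genes, those most like Bcl2l11 were Map3k7, Frmd6 and Zfp868 (r = 0.96, 0.95 and 0.95). Those most like Bcl2a1d were Lcp2, Traf1 and Gpr84 (r = 0.99, 0.98 and 0.98), and Pik3r5 was most like Bcl2a1b (r = 0.97). Psma2 was most like Bak1 (r = 0.99), Mdh2 most like Bax (r = 0.99) and Dusp5 most like Mcl1 (r = 0.92).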

How the data were processed

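Per the labels and the study's methods, reads of 101-cycle paired-end sequencing were trimmed with Trimmomatic 0.33 and aligned to mm10 with STAR 2.5.1, which gave the deposited raw counts of reads per gene for each strand setting. The annotation release is not given in the sources used here. The sense column was used, and rows for reads without a gene (unmapped, mapped to several places, outside annotated exons or ambiguous; 76.6% to 80.2% of reads per library) were left out, as was Rn45s, whose share differed between libraries. With edgeR 4.0.16, genes were filtered by filterByExpr, scaled by TMM and tested with a robust quasi-likelihood fit of all 25 libraries, 1 mean per group. Standard errors were taken from the F statistic (log2 fold change divided by its root), and intervals are 95% intervals. Groups came from the labels. The 10 genes and all lists were chosen with earlier results of these data known. By rule, the 10 genes could be named in every comparison, and from each list up to 3 genes with the largest called change and a group mean of at least 5 CPM could be named. For likeness, genes needed a condition mean of at least 10 CPM. Positions and exon lengths are from GENCODE M21, promoters from RefSeq. Alternatives were DESeq2 1.42.0, other filters and scalings, unstranded counts, Rn45s kept, summed Bcl2a1 copies, a replicate block, subsets of libraries and each library left out. In simulated data for 4 h against control (10048 genes), changes were placed only in genes with a mean of at least 10 CPM. Of these, 82 of 100 genes changed by log2 1 and 99 of 100 changed by log2 2 were recovered. Recovery for lower genes such as Bbc3 was not tested. Chi-square over degrees of freedom between replicates was 1.3 to 4.53 in the 23 pairs within groups, so no replicate was a copy of another of its group. The floor of 3 counts covers counting error only.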

Additional observations from a re-analysis of the deposited data

Results flagged for a closer look

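The 4 h response in RAW264.7 cells (LPS) differed from that in BMDMs (IFN-γ with LPS) by the test of the difference itself for 6 of the 10 genes, and was higher in the line for Bcl2l1 (2.53 on the log2 scale), Bcl2l11 (1.26) and Mcl1 (0.53). It was lower for Bcl2a1d (-3.25) and Bak1 (-1.35). The level of a single Bcl2a1 copy is uncertain, and for the summed copies the difference was -0.77. For Bmf the fitted difference was 7.25, which rests on 0 counts in BMDMs at 4 h and is no bound. Whether the cell type or the IFN-γ goes with these differences cannot be told apart.

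The antisense column was not used for the results. Genes and groups were picked here because every library lay above every control library, so that separation is the rule of choice and not a result. Of the counts of Mcl1 on both strands, 0.445% were antisense at 1 h of IFN-LPS, 0.880% at 4 h and 0.538% at 12 h. The BMDM control share was 0.235%, on 8 antisense counts, with 0.352% in its highest library. BMDM groups that were not picked had Mcl1 shares of 0.395% at 24 h, 0.316% with IL-4 and 0.416% with IL-13. In RAW264.7 cells with LPS the Mcl1 share was 0.453%, against at most 0.234% in the control. The antisense share of Bcl2a1d was 1.56% at 4 h and 0.373% at 24 h. Those of Bak1 and Bcl2a1a were 0.556% and 1.19% at 12 h. The control had 0 antisense counts for these 3 genes, among only 48 counts of Bcl2a1d, 279 of Bak1 and 7 of Bcl2a1a. Those counts are too few to tell shares of this size from 0, so no difference from the control is drawn for these genes. All shares given for stimulated cells rest on 4 to 28 antisense counts per group, and library-wide sense counts were 93.9 to 158 times the antisense counts.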

How the results depend on the processing

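Of 2406 values of single genes under alternatives, 2346 kept their side of the threshold, 38 lost and 17 gained a call. A further 5 reversed in sign with a call in either fit. Changes of sign between values called in neither fit were not counted as reversals and are among the 2346. Reversals without normalization factors were Mcl1 at 4 h (-0.30) and 12 h (-0.075), Bax at 4 h (-0.21) and Bcl2l11 at 4 h (-0.54), an alternative chosen after seeing the data; with Bcl2a1 copies summed, Bcl2a1d between RAW264.7 and BMDM controls reversed to -1.17. The study's fold cutoffs (log2 1.5 for IFN-LPS, 0.7 for IL-4 and IL-13, 2 for LPS in RAW264.7 cells, with 1.5 used here between cell types) lowered the genes called from 6 to 3 at 1 h, from 7 to 4 at 4 h, from 8 to 5 at 12 h and from 8 to 4 at 24 h of IFN-LPS, from 7 to 4 for 4 h against 1 h, from 4 to 2 for 12 h against 4 h, from 1 to 0 for 24 h against 12 h, from 7 to 4 for IFN-LPS against IL-4 and against IL-13, from 6 to 3 for RAW264.7 LPS, from 9 to 4 for RAW264.7 against BMDM control and from 6 to 3 for the difference of responses. For 24 h against 12 h, 2 genes were called with Rn45s kept, with the same experiment's samples alone and without normalization factors. For IL-13, 2 were called with the same experiment's samples, where Mcl1 joined, and 1 to 2 when single libraries were left out. The numbers of called genes stayed within 1.5 times in the other comparisons under leave-one-out. The labels' replicate numbers showed little pairing: deviations from the group mean of same-numbered BMDM libraries correlated at 0.0144 on average (63 pairs, -0.0535 to 0.154). The mean for other pairs (-0.00724) largely follows from this value, because group means were subtracted, and is no separate comparison. The replicate block changed 2 calls, with Bcl2l1 at 1 h called (0.68) and Bcl2 between RAW264.7 and BMDM controls lost (-0.91), giving 7 called genes in place of 6 and 8 in place of 9. At a median of 1776160 counts without Rn45s per library, small differences of Bbc3, Bcl2 and Bmf were not detectable.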
